A study of Mus musculus with 12 samples.

Results

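Activity in a neuron switches on a small set of transcription factor genes within minutes, without prior protein synthesis, and these immediate early genes are widely used to mark neurons engaged by learning. The AP-1 factors are dimers of a Fos-family protein (Fos, Fosb, Fosl2) and a Jun-family protein (Jun, Junb, Jund) that bind DNA through a basic leucine zipper. The Egr factors (Egr1 to Egr4) bind GC-rich sites through zinc fingers, and both families pass a short burst of signalling on to later target genes. The set described here was chosen by symbol and holds 10 genes of the 24531 in the tables, with 15 of the 36779 transcripts. All 10 passed the filter on low counts in every comparison.

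RNA-seq libraries came from the basolateral (BLA) and the central (CeA) amygdala. The mice were male and wild-type, either C57BL/6 (called B6) or 129S1/SvImJ (called S1). They had had no training (naive), fear conditioning (FC) or fear conditioning followed by extinction (Ext), which gave 12 groups of 1 library each. The design text asks which genes relate to impaired extinction in S1 mice, and it names the dissected central part CEm where the sample labels say CeA. The age of the mice, the number per library and the interval from training to dissection are not given in the labels, and that interval matters for genes whose RNA is short-lived.

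Totals were 42224899 to 61695302 counts per library. Levels are CPM, counts scaled to a common library size with TMM factors, and differences are log2 differences of them. The excitatory neuron gene Slc17a7 had 1740 to 1997 CPM in BLA and 12.3 to 169 in CeA, with the 2 highest CeA values in naive B6 (169) and conditioned S1 (91.6). Prkcd, a marker of one class of CeA neuron, had 8.09 to 10.6 CPM in BLA and 182 to 291 in CeA. The CeA libraries also carried striatal markers, whose summed level was 3025 to 4142 CPM there and 498 to 919 CPM in BLA. In the conditioned B6 BLA library Jund stood far below every other library. The mean level of Jund and its fitted differences before extinction are given with and without that library.

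The promoters of 3 members are shown because these genes had the largest conditioning estimates of the set. Each is 250 bases before to 50 bases after the RefSeq start (GRCm38.p6), written 5′ to 3′ on the gene's own strand. The windows are Fos at chr12:85473640-85473939 (plus strand), Fosb at chr7:19309996-19310295 (minus strand) and Egr2 at chr10:67537619-67537918 (plus strand). Capitals mark the CRE core TGACG (or CGTCA on the other strand), the CArG box bound by serum response factor, and the Egr site GCGGGGGCG.
Fos: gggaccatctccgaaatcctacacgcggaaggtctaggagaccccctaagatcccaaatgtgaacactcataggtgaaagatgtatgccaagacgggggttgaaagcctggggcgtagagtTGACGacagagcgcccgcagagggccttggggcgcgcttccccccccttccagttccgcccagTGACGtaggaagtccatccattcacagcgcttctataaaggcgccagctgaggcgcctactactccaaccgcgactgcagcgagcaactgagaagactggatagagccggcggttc
Fosb: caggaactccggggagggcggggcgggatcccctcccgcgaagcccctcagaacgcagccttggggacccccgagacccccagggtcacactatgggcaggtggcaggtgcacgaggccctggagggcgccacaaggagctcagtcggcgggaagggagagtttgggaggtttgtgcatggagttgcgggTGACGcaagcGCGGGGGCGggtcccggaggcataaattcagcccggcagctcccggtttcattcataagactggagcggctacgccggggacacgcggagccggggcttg
Egr2: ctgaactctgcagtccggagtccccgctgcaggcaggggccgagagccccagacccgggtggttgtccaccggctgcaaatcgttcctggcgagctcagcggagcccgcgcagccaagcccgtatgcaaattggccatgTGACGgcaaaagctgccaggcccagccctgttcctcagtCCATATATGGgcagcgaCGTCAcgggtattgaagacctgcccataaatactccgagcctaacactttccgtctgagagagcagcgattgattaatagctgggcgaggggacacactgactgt

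Windows were found for 8 of the 10 genes, all but Egr1 and Egr3, so these 2 were not searched. TGACG, on either strand, occurred in 5 of these 8, against 20.8% of 32851 windows of the same length in the reference table. In Fos it began 129 and 66 bases before the start, in Fosb 60 bases, in Egr2 111 and 55 bases, in Egr4 177 and 109 bases and in Junb 106 bases. Of the 8 windows, that of Egr2 alone held a CArG box, 72 bases before the start (1.63% of all windows held one). The Egr site GCGGGGGCG occurred in Fosb, 50 bases before the start, and in Fosl2, 79 bases before it (2.91% of all windows). The full CRE TGACGTCA (1.79% of all windows), the AP-1 site TGACTCA (5.2%) and the Egr site GCGTGGGCG (0.612%) were not present in the 8 windows. These are matches of letters in a short window, and an absent match says nothing of a site elsewhere.

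Per transcript length, the AP-1 and Egr genes spanned a wide range of level. The order of mean level in CPM per kilobase of transcript (RPKM; mean ± SD over the 12 libraries) began with Egr1 at 44.2 ± 2.81, Jund at 42.0 ± 13.4 and Junb at 34.7 ± 6.78. Without the conditioned B6 BLA library Jund came first at 45.6 ± 5.84 and Egr1 next at 44.4 ± 2.88 (n = 11). Egr3 followed at 26.4 ± 4.10, Jun at 21.0 ± 11.02 and Egr4 at 16.4 ± 3.89. A wide step separated these from the last 4 genes, Fosl2 at 5.69 ± 1.45, Fos at 4.58 ± 1.5, Fosb at 3.50 ± 0.716 and Egr2 at 1.29 ± 0.302. Egr4 lay above Fosl2, and Fosb above Egr2, in 12 of 12 libraries. Egr1 lay above Jund in 5 libraries, so these neighbours did not separate, and Egr3 lay above Jun in 7. Jun lay above Egr4 in 6, which were the BLA libraries. Egr4 had 13.05 ± 0.799 RPKM in BLA and 19.7 ± 2.55 RPKM in CeA. The remaining neighbours kept their order in 10 of 12. The order also differed by region: Jun held rank 3 in BLA (31.4 ± 2.75 RPKM, n = 6) and rank 6 in CeA (10.7 ± 1.304 RPKM, n = 6).

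**Figure D1:**
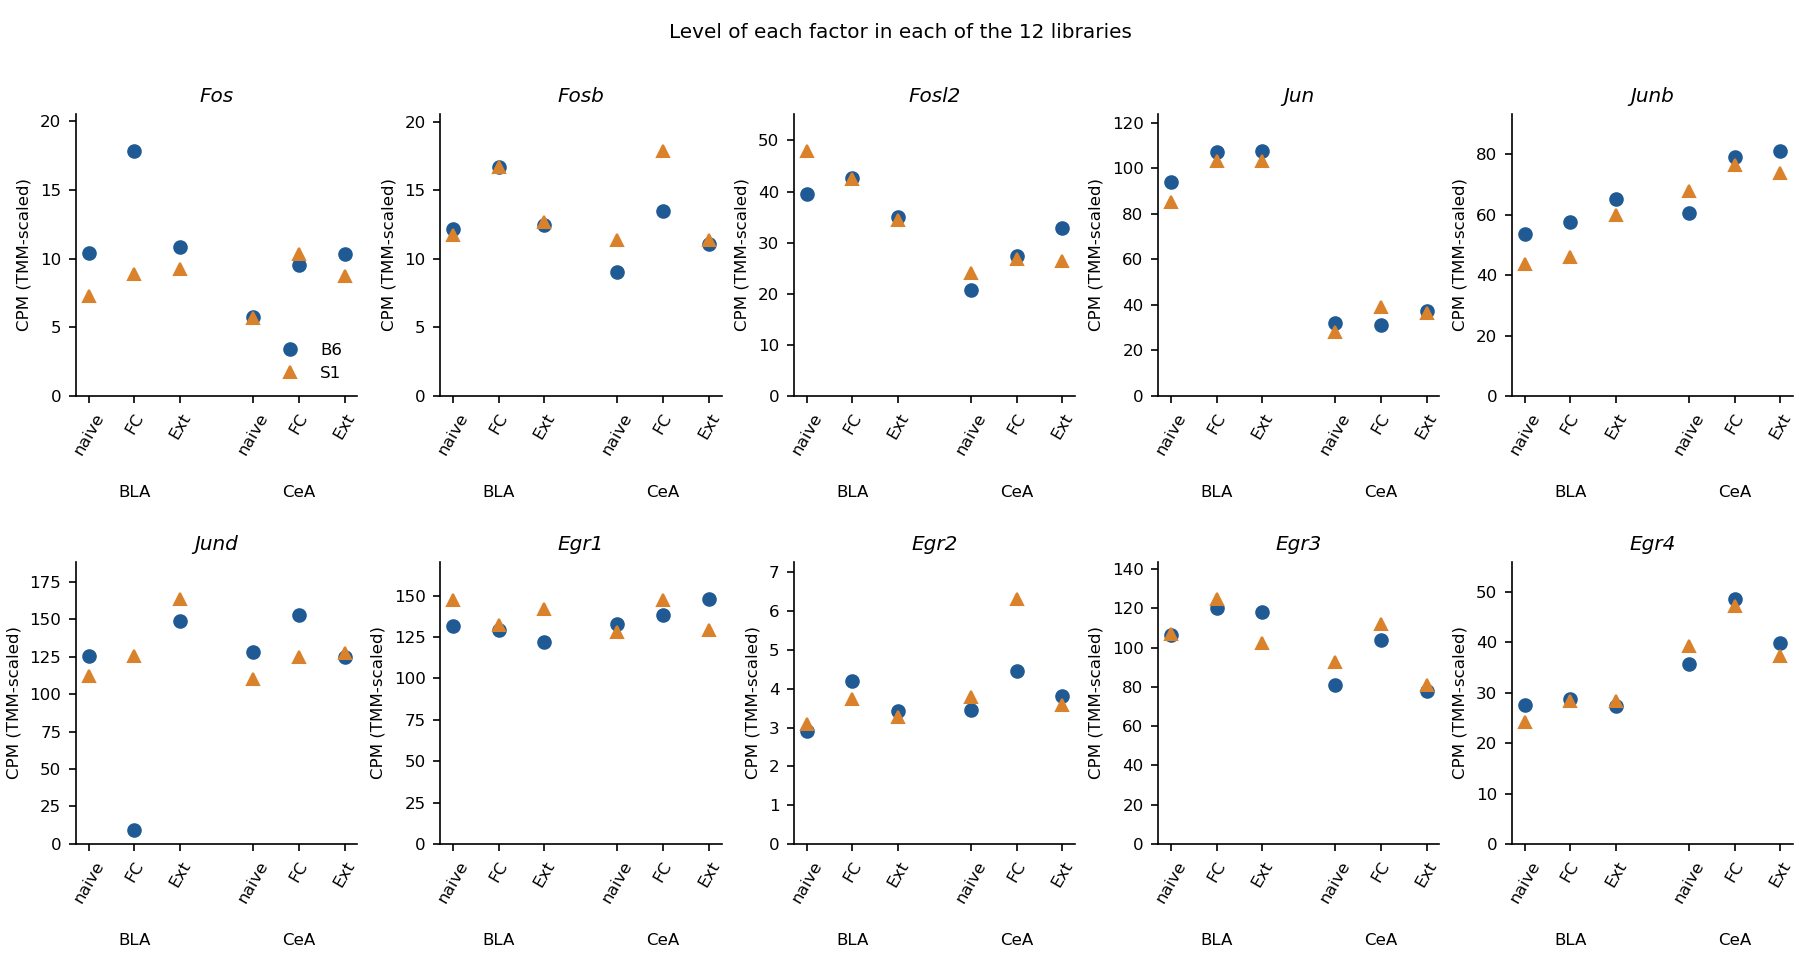
Level of each gene in each library, in TMM-scaled CPM on a linear axis from 0, by region and condition, with circles for B6 and triangles for S1; each point is 1 library. Jun is split by region, Fosb is highest after conditioning in each strain and region, and Jund has 1 low point at 9.19 CPM in conditioned B6 BLA.

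Fos and Fosb had the largest fitted conditioning differences of the set. Fos itself (chr12:85473901-85477270, mm10, 1 transcript) encodes the AP-1 subunit most used as an activity marker. In BLA it had 10.4 CPM in naive, 17.9 in conditioned and 10.9 in extinction B6 mice, against 7.27, 8.89 and 9.21 CPM in S1. In CeA the same order gave 5.73, 9.51 and 10.3 CPM in B6 and 5.71, 10.4 and 8.75 CPM in S1. The conditioned B6 BLA library was the highest of the 12 and the 2 naive CeA libraries were the lowest. Conditioned exceeded naive in 4 of 4 pairs, by 0.78 (95% counting interval 0.62 to 0.93) in B6 BLA, 0.29 (0.07 to 0.51) in S1 BLA, 0.73 (0.51 to 0.95) in B6 CeA and 0.86 (0.64 to 1.08) in S1 CeA. Naive and conditioned libraries overlapped, because the naive B6 BLA library was above conditioned S1 BLA, B6 CeA and S1 CeA. The fitted conditioning difference of Fos was 0.69 ± 0.18 SE (1.61-fold), with an unadjusted edgeR p of 0.00468 and an adjusted p of 0.999.

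Fosb (chr7:19302696-19310045, 2 transcripts) encodes a Fos-family subunit whose truncated form, ΔFosB, is stable and accumulates with repeated stimulation. It was the only member whose 4 conditioned libraries all lay above the 4 naive ones, a pattern that 0.277% of 16262 genes had. Naive levels were 12.2 CPM in B6 BLA, 11.7 in S1 BLA, 9.07 in B6 CeA and 11.4 in S1 CeA. Conditioned levels in the same order were 16.7, 16.7, 13.5 and 17.9 CPM. The pairs differed by 0.46 (counting interval 0.31 to 0.61) in B6 BLA, 0.51 (0.35 to 0.67) in S1 BLA, 0.58 (0.40 to 0.75) in B6 CeA and 0.66 (0.50 to 0.82) in S1 CeA, a narrow range across strains and regions. The fitted difference was 0.55 ± 0.09 (1.46-fold), the ninth smallest p of 16274 genes (0.000381), with an edgeR adjusted p of 0.689. DESeq2 gave Fosb an adjusted p of 0.0112.

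Fosl2 (chr5:32136472-32157839), which encodes Fra-2, a Fos-family subunit with slower kinetics, did not share that uniformity. Its pairs ran from −0.17 in S1 BLA to 0.40 in B6 CeA, and the fitted difference was 0.12 ± 0.09 (edgeR unadjusted p = 0.226).

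**Figure D2:**
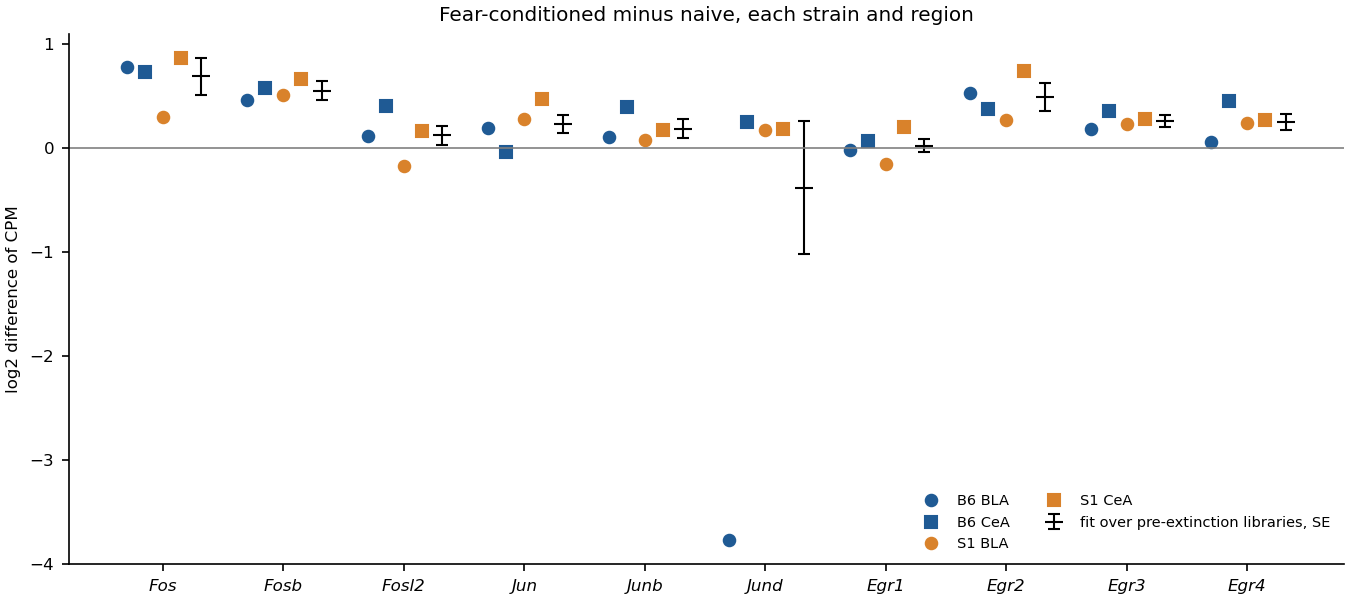
Log2 difference of CPM, conditioned minus naive, for each gene in each strain (colour) and region (circle for BLA, square for CeA), with the fitted difference over the 8 naive and conditioned libraries ± SE in black. The 4 Fosb pairs lie close together between 0.46 and 0.66, and the single point at −3.77 is Jund in B6 BLA.

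Among the Egr genes, 3 of the 4 were higher after conditioning in every pair. Egr2 (chr10:67537869-67542188), a zinc finger factor also known from hindbrain patterning and myelination, was the lowest member at 2.92 to 6.32 CPM. It had 2.92 CPM in naive and 4.2 in conditioned B6 BLA, 3.09 and 3.73 in S1 BLA, 3.46 and 4.46 in B6 CeA, and 3.79 and 6.32 in S1 CeA. Conditioned S1 CeA stood above the other 11 libraries, and the counts behind these levels were 134 to 336 reads, so that the counting interval of the S1 BLA pair (−0.07 to 0.61) included 0. The fitted difference was 0.49 ± 0.13 (edgeR unadjusted p = 0.00672, adjusted p = 0.999).

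Egr3 (chr14:70077445-70082613), which acts downstream of Egr1 and of calcium signalling, was higher after conditioning by 0.17 in B6 BLA, 0.22 in S1 BLA, 0.35 in B6 CeA and 0.27 in S1 CeA. No counting interval of these 4 pairs included 0. The fitted value of 0.25 ± 0.06 had an unadjusted edgeR p of 0.00165 (adjusted p = 0.985). Egr4 (chr6:85511122-85513542), a neuronal member of the family, had pairs of 0.06 to 0.45 and a fitted value of 0.25 ± 0.08 (edgeR unadjusted p = 0.0115).

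Egr1 (Zif268), a standard marker of plasticity, was the flattest member. Its level ran from 122 CPM in extinction B6 BLA to 148 CPM in extinction B6 CeA, 1.21-fold from lowest to highest. The conditioning pairs were −0.02 in B6 BLA, −0.15 in S1 BLA, 0.06 in B6 CeA and 0.20 in S1 CeA, and the fitted difference was 0.02 ± 0.07 (edgeR unadjusted p = 0.775).

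Of the Jun genes, Junb (chr8:84976909-84978748), whose protein can restrain Jun, was higher after conditioning in 4 of 4 pairs, by 0.07 to 0.39. Its fitted difference was 0.18 ± 0.09 (edgeR unadjusted p = 0.0821). Jun (chr4:95049036-95052222), the prototype Jun subunit, was higher in 3 of 4 pairs, with −0.04 in B6 CeA, 0.19 in B6 BLA, 0.28 in S1 BLA and 0.47 in S1 CeA. Its fitted difference was 0.23 ± 0.08 (edgeR unadjusted p = 0.0256).

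Over the set, edgeR called 0 of 10 members for conditioning, and it called 0 of 16274 genes (0%) in all. At an unadjusted p under 0.05 there were 571 genes, DESeq2 called 21 genes, Fosb among them, and limma on FPKM called 0. The estimates were positive in 9 of 10 members against 49.6% of all genes tested, with a median of 0.24 against −0.00. Without the conditioned B6 BLA library they were positive in 10 of 10, with a median of 0.24. Fos, Fosb, Junb, Egr2, Egr3 and Egr4 were higher in 4 of 4 pairs, as were 5.94% of 16262 genes. The members share the same 8 libraries and are not replicates of each other, and they were chosen with earlier results of these data known. The test of whether the conditioning difference itself differed between strains called 0 of 10 members by edgeR (0% of all genes, 293 at an unadjusted p under 0.05) and 0 by DESeq2. Between regions it called 0 of 10 by edgeR (0.0184% of all genes, 969 at an unadjusted p under 0.05) and 0 by DESeq2. For Fosb the difference between the strains' responses was 0.06 ± 0.20 and that between the regions' responses −0.14 ± 0.19.

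Jund (chr8:70697739-70700616) encodes the Jun subunit that neurons express without stimulation. In 11 libraries it had 110 to 164 CPM (mean 131 ± 16.8 SD), and in conditioned B6 BLA it had 9.19 CPM, from 506 reads, 11.9-fold below the next lowest library. The authors' FPKM in that library was 3.01. Counts and FPKM come from the same reads, so the FPKM is no independent check on the drop. Whether the assignment of reads in that library had a part in it was not tested. Among 11613 genes with a mean of at least 5 CPM, 14 had some library at least 8-fold below the next, and Jund was the only one whose low library was conditioned B6 BLA. Each of the other libraries was the low one for 0 to 3 of these genes. The other 3 conditioning pairs of Jund were 0.17 in S1 BLA, 0.18 in S1 CeA and 0.25 in B6 CeA. Its fitted conditioning difference was −0.38 ± 0.64 with that library and 0.21 without it, neither called by edgeR.

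**Figure D3:**
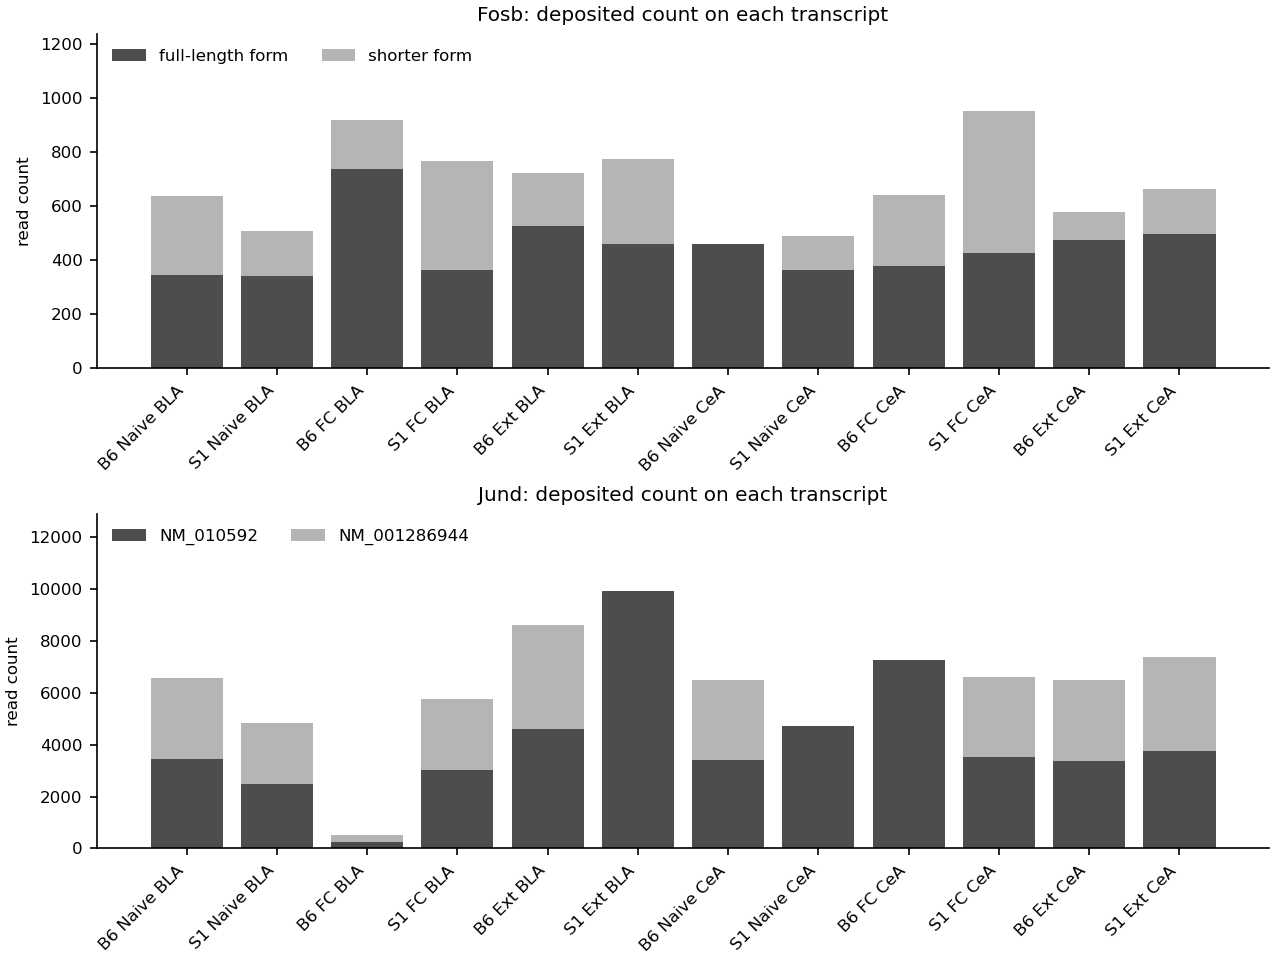
Deposited read counts of Fosb (upper panel) and Jund (lower panel) in each library as stacked bars, split by annotated transcript, without scaling for depth. The shorter Fosb form is at 0 in naive B6 CeA and at 523 of 951 reads in conditioned S1 CeA; Jund has 506 reads in conditioned B6 BLA.

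The Fosb count is divided between 2 annotated transcripts, and the shorter one lacks 140 bases. GENCODE annotates an intron of exactly 140 bases within the last Fosb exon, chr7:19305007-19305146 (mm10), whose removal gives the ΔFosB reading frame. In BLA the shorter form took 45.8% of Fosb reads in naive, 19.8% in conditioned and 27.0% in extinction B6 mice, against 32.9%, 52.6% and 40.5% in S1. In CeA it took 0%, 40.8% and 18.2% in B6 and 25.8%, 55.0% and 25.1% in S1. The 2 conditioned S1 libraries were the highest of the 12. The naive B6 CeA library had 0 of 459 reads assigned to the shorter form. Reads that do not reach the 140 bases cannot tell the forms apart, so no upper limit on this share is given.

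The share was 41.6% ± 14.5 (SD, n = 4) in S1 and 26.6% ± 21.0 (SD, n = 4) in B6 before extinction. An exact two-sided permutation test gave p = 0.314, where 4 against 4 can reach 0.0286 at the lowest. The test did not match libraries by region and condition, so differences between these add to its spread. The strains overlapped, and the S1 minus B6 difference in the mean share was 6.07 percentage points without the naive B6 CeA library and 14.9 with it. The split between nearly identical transcripts is the authors' estimate and rests on the reads that span the 140 bases. In the same library an Egr3 transcript (NM_001289925) took 3.34% of Egr3 reads, against 15.3% to 41.8% in the other 11. The Jund transcripts have the same coordinates and length in the tables, so their split carries no information, and all Egr2 reads were assigned to 1 of its 2 transcripts. No member transcript was called between strains by edgeR (0 of 14 tested, where 3.06% of 24539 transcripts were; 5333 transcripts had an unadjusted p under 0.05).

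Region gave the most calls in the set. Before extinction edgeR called 5 of 10 members between BLA and CeA, where 46.6% of all genes were called, so the share is close to the background. Jun had 94.1 CPM in naive, 107 in conditioned and 108 in extinction B6 BLA, and 85.3, 103 and 103 CPM in S1 BLA. The CeA levels in the same order were 32.1, 31.3 and 37.3 CPM in B6 and 28.1, 38.9 and 36.3 CPM in S1. The regions did not overlap, as for 14.3% of 16262 genes that lay wholly higher in BLA and 13.2% wholly lower. Jun was 2.97-fold higher in BLA before extinction (log2 difference 1.57 ± 0.08, edgeR adjusted p = 4.76e-06) and 2.89-fold higher after it (1.53 ± 0.07, edgeR adjusted p = 0.000791). In bulk tissue, fewer cells of a type and less RNA per cell cannot be told apart. The part of the regions' differing cell type markers in these values was not tested.

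Fosl2 was 1.74-fold higher in BLA before extinction (0.80 ± 0.09, edgeR adjusted p = 0.000223), at 39.5 to 48.0 CPM against 20.8 to 27.5 CPM. After extinction the levels lay closer, at 35.0 and 34.3 CPM in B6 and S1 BLA against 32.8 and 26.5 CPM in CeA. The difference was then 0.25 ± 0.10 (edgeR adjusted p = 0.108). Over all 12 libraries Fosl2 lay wholly higher in BLA, as did 14.3% of 16262 genes. Egr3, like Jun and Fosl2, was higher in BLA in 6 of 6 pairs (23.8% of all genes were), by 0.23 ± 0.06 before extinction (edgeR adjusted p = 0.00872) and 0.48 ± 0.09 after it (edgeR adjusted p = 0.0176). On the log2(FPKM + 1) scale limma gave Egr3 an adjusted p of 0.0656 before extinction.

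Egr4 and Junb lay the other way. Egr4 had 24.1 to 28.7 CPM in the 6 BLA libraries and 35.6 to 48.7 CPM in the 6 CeA libraries. It lay wholly lower in BLA, as did 13.2% of 16262 genes. It was 1.57-fold lower in BLA before extinction (−0.65 ± 0.08, edgeR adjusted p = 0.000253) and 1.37-fold lower after it (−0.45 ± 0.08, edgeR adjusted p = 0.016). Junb was 1.422-fold lower in BLA before extinction (−0.51 ± 0.09, edgeR adjusted p = 0.00238) and 1.22-fold lower after it (−0.29 ± 0.07, edgeR adjusted p = 0.0296). The regions overlapped for Junb over all 12 libraries. Egr2, like Junb and Egr4, was lower in BLA in 6 of 6 pairs (24% of all genes were). Its pairs lay between −0.76 and −0.09, and its fitted difference was −0.36 ± 0.13 (edgeR adjusted p = 0.0601, and 0.0383 with all 12 libraries).

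Fos was 0.48 ± 0.18 higher in BLA before extinction (edgeR adjusted p = 0.0582). It passed the threshold without conditioned S1 BLA (0.67, adjusted p = 0.00652), without conditioned S1 CeA (0.64, adjusted p = 0.0179) and with DESeq2 (adjusted p = 0.0267). The pairs were 0.86 in naive and 0.91 in conditioned B6 mice, 0.35 in naive and −0.22 in conditioned S1 mice, and 0.07 in both strains after extinction. Fosb (0.16 ± 0.09, edgeR adjusted p = 0.201) and Egr1 (−0.02 ± 0.07, edgeR adjusted p = 0.829) were not called. Jund was −0.62 ± 0.64 before extinction and −0.02 without the conditioned B6 BLA library. After extinction edgeR called 5 of 10 members (36.3% of 15996 genes), namely Jun, Egr3 and Jund higher in BLA and Junb and Egr4 lower, with Jund at 0.32 ± 0.06 (edgeR adjusted p = 0.0205).

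**Figure D4:**
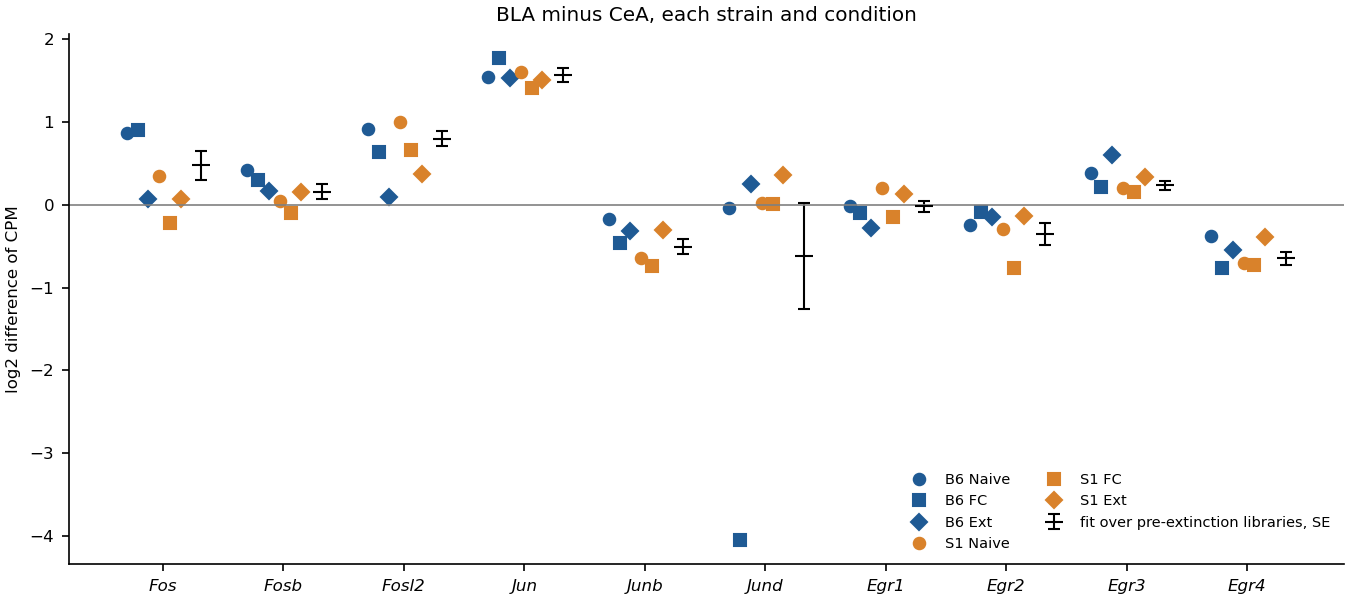
Log2 difference of CPM, BLA minus CeA, for each gene in each strain (colour) and condition (circle naive, square FC, diamond Ext), with the fitted difference over the naive and conditioned libraries ± SE in black. Jun lies between 1.41 and 1.78 in all 6 pairs, Egr4 between −0.76 and −0.37, and the point at −4.05 is Jund in conditioned B6.

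Between strains before extinction edgeR called 0 of 10 members, where 22.8% of all genes were called and 6063 genes had an unadjusted p under 0.05. DESeq2 and limma also called 0 members. The largest estimate apart from Jund was Fos at −0.34 ± 0.18 in S1 minus B6 (edgeR adjusted p = 0.198), and −0.28 after subtracting the median of genes of like transcript length. For Fos, S1 minus B6 was −0.52 in naive, −1.01 in conditioned and −0.24 in extinction BLA, and −0.00, 0.12 and −0.24 in CeA. The difference between the regions' strain gaps was −0.82 ± 0.22 (edgeR unadjusted p = 0.00668, adjusted p = 0.477), and −0.56 without conditioned S1 BLA. Fosb (−0.38 ± 0.14, edgeR unadjusted p = 0.0255) and Junb (−0.36 ± 0.14, edgeR unadjusted p = 0.0338) had the same sign. This difference was positive in 3 of 10 members (Jund, Egr1 and Fosl2), against 51% of all genes tested. That test called 0 of 10 members by edgeR (0.0307% of all genes, 1404 at an unadjusted p under 0.05) and 0 by DESeq2. Before extinction, summed oligodendrocyte markers ran from 1819 to 3535 CPM in S1 and from 3268 to 5111 CPM in B6. Summed microglial markers ran from 402 to 426 CPM in S1 and from 505 to 549 CPM in B6. The part of these markers in the strain values was not tested.

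Jund was 0.37 ± 0.64 higher in S1 before extinction (edgeR adjusted p = 0.704) and −0.22 without the conditioned B6 BLA library. With all 8 libraries its strain by conditioning, region by conditioning and strain by region differences were 1.18 ± 1.27, −1.31 ± 1.26 and 1.38 ± 1.23 (edgeR adjusted p of 1, 0.815 and 0.746). Without that library they were −0.11, −0.02 and 0.09. EdgeR called Jund when another library was left out and the low one kept. The strain by conditioning difference was 3.96 without conditioned B6 CeA (adjusted p = 0.00253), the region by conditioning difference −4.02 without conditioned S1 BLA (adjusted p = 0.000913) and the strain by region difference 4.05 without naive B6 BLA (adjusted p = 0.000373).

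After extinction 0 of 10 members were called between strains by edgeR (1.64% of 15996 genes; 2392 genes at an unadjusted p under 0.05, and 0 members by DESeq2). That fit had 1 residual degree of freedom. The strain gap after extinction was set against the mean gap before it, where a shift shared by the extinction libraries cancels. EdgeR called 0 of 10 members and 0 of 16523 genes (0%), with 738 genes at an unadjusted p under 0.05, and DESeq2 called 26 genes and 0 members. The change of the gap was 0.13 ± 0.31 for Fos, −0.13 ± 0.15 for Fosb and −0.30 ± 0.24 for Fosl2.

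The extinction libraries were deposited in a table of their own, so extinction and table cannot be told apart in the next values. Fosb after extinction had 12.4 CPM in B6 BLA, 12.7 in S1 BLA, 11.1 in B6 CeA and 11.4 in S1 CeA. It was above naive in 4 of 4 pairs, by 0.01 to 0.29, and the counting interval excluded 0 in B6 CeA (0.11 to 0.47) but in no other pair; the fitted difference was 0.11 ± 0.09 (edgeR adjusted p = 0.502). It was lower than in conditioned mice in 4 of 4 pairs, by 0.28 to 0.65 (13.4% of 16262 genes were lower in 4 of 4). Its 4 extinction libraries all lay below its 4 conditioned ones, as for 2.05% of genes. EdgeR called it 1.36-fold lower than after conditioning (−0.44 ± 0.09, adjusted p = 0.0331), the only 1 of 10 members called (2.27% of all genes). Without 1 library the adjusted p ran from 0.0184 to 0.154, and the call was lost in 8 of 12 such fits: without conditioned B6 BLA, S1 BLA or S1 CeA, naive S1 BLA or S1 CeA, or extinction B6 BLA, S1 BLA or S1 CeA.

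Egr2, Egr3 and Egr4 were also lower after extinction than after conditioning in 4 of 4 pairs. Their fitted differences were −0.40 ± 0.13 for Egr2 (edgeR adjusted p = 0.0964), −0.29 ± 0.08 for Egr3 (edgeR adjusted p = 0.0642, DESeq2 adjusted p = 0.00932) and −0.17 ± 0.08 for Egr4 (edgeR adjusted p = 0.184). For Fos the pairs were −0.71 in B6 BLA, 0.05 in S1 BLA, 0.12 in B6 CeA and −0.24 in S1 CeA, and the fitted difference was −0.22 ± 0.17 (edgeR adjusted p = 0.446). These values share the conditioned libraries with the conditioning contrast.

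Against naive mice, edgeR called 0 of 10 members (1.1% of 16262 genes; 3580 genes at an unadjusted p under 0.05), while DESeq2 called Jun (adjusted p = 0.0209) and Junb (adjusted p = 0.0157). Junb had 65.2 CPM in B6 BLA, 59.9 in S1 BLA, 81.2 in B6 CeA and 73.7 in S1 CeA after extinction, above the naive library of its own strain and region in 4 of 4 pairs, as were 11.8% of genes (0.32 ± 0.09, edgeR adjusted p = 0.0838). It was called without extinction B6 CeA (0.34, adjusted p = 0.0476). Jun was higher in 4 of 4 pairs as well (0.26 ± 0.07, edgeR adjusted p = 0.0921), and was called without conditioned B6 CeA (adjusted p = 0.0482). Fos was 0.46 ± 0.17 above naive (edgeR adjusted p = 0.157), higher in 4 of 4 pairs by 0.06 to 0.85.

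Other genes of the pathway were read from lists of related genes, which were also chosen with earlier results of these data known. For conditioning, edgeR called 0 genes of each. The other rapid immediate early genes were positive in 18 of 25 (median 0.12), with the smallest p for Arc, which encodes a synaptic protein of dendritic RNA (0.57 ± 0.08, edgeR unadjusted p = 9.5e-05, adjusted p = 0.564), and Btg2, an antiproliferative factor (0.38 ± 0.07, adjusted p = 0.893). Inhibitors of the pathway were positive in 8 of 9 (median 0.11), with Dusp1, a phosphatase of MAP kinases, at 0.25 and Zfp36, an mRNA decay factor, at 0.25. Later response genes were positive in 15 of 21 (median 0.04), with Inhba, the activin A subunit, at 1.12 ± 0.18 (edgeR unadjusted p = 0.000277, adjusted p = 0.564) and Cdkn1a, a cell cycle inhibitor, at 0.49. Upstream kinases and activators were positive in 11 of 23 (median −0.00), with Elk1, a serum response factor partner, at 0.18 and Atf1 at −0.16. The other AP-1 genes were positive in 6 of 8 tested (median 0.05), with Atf2 at −0.08 and Maff at 0.30.

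Between regions 23.2% of all genes were called higher in BLA and 23.4% lower, which is the background for each list. Of the rapid genes 12 of 25 were higher in BLA and 5 lower, led by the nuclear receptors Nr4a2 (3.72) and Nr4a3 (1.81), the zinc finger gene Klf10 (1.59) and the small Maf gene Maff (−1.05), which is also counted with the other AP-1 genes. Inhibitors had 5 of 9 higher and 0 lower. These included Fbxw7, part of a ubiquitin ligase that degrades Jun (1.08), the phosphatases Dusp6 (0.73) and Dusp4 (0.61), and the Egr corepressor Nab1 (0.38). Upstream genes had 8 of 23 higher and 5 lower, among them the Jun kinases Mapk8 (1.01) and Mapk10 (0.79) higher and the S6 kinases Rps6ka5 (−1.36) and Rps6ka2 (−1.35) lower. Later response genes had 10 of 21 higher and 5 lower, including the neuritin gene Nrn1 (4.52) and Bdnf (4.38) higher and the opioid peptide genes Pdyn (−4.69) and Penk (−3.70) lower. Of the other AP-1 genes 1 of 8 was higher (Jdp2, a repressor of AP-1, 0.52) and 2 were lower (Maff and Mafk, −0.89).

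Between strains, where edgeR called 12.4% of all genes higher and 10.4% lower in S1, it called 4 of 23 upstream genes, all higher in S1. These were the histone acetyltransferase coactivators Crebbp (0.59) and Ep300 (0.47), the serum response factor coactivator Mkl2 (0.37) and the Jun kinase Mapk9 (0.15). Of the rapid genes 4 of 25 were lower in S1 and 0 higher, namely Ier2 (−0.53), Gadd45g (−0.50), Klf2 (−0.46) and Ier5 (−0.40). Later response genes had 3 of 21 higher (Inhba 0.79, the AMPA receptor subunit Gria2 0.50 and the kinase Camk2a 0.42) and 1 lower (Plk3 −0.26), the other AP-1 genes 1 of 8 higher (Mafg 0.31), and the inhibitors 0 of 9. Among genes of like transcript length, the median S1 minus B6 difference was −0.10 at 1769 to 1959 bases. It was 0.17 at 5212 to 6073 bases. The strain values of these lists were not corrected for length, and the part of length in them was not tested. After extinction edgeR called Nr4a1 higher (0.51 against naive, 0.40 against conditioned) and Homer1 lower (−0.28 and −0.27), both of the rapid list, and no gene of the other 4 lists. It called 1.1% of all genes against naive and 2.27% against conditioned mice, and extinction and its table cannot be told apart here either.

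The genes whose profile was most like each member's were ranked by Pearson correlation of log2 CPM over the 12 libraries among 13245 genes, as a description. For Jun these were Megf11 (0.994), Slc2a6 (0.993) and Trim3 (0.991), and for Egr4 Sox8 (0.977), Apex2 (0.975) and Nadk (0.965). The points behind them fall into the 2 regions, which did not overlap for Jun, Fosl2 or Egr4. For Fosl2 they were Fam222b (0.957), Cacna1i (0.954) and Jak3 (0.954), for Junb Epor (0.953), Spef1 (0.944) and Pold1 (0.937), and for Egr3 Alcam (0.932), Cdc25a (0.925) and Grb2 (0.891). Fos ranked Cx3cl1 (0.869), Arc (0.817) and Lman2l (0.808), Egr2 Tob2 (0.858), Prpf4 (0.841) and Elk1 (0.825), and Fosb Pacrgl (0.834), Nmbr (0.825) and Paqr9 (0.823). Egr1 had the lowest values, with Bean1 at 0.80, Rffl at 0.765 and Ptpn1 at 0.739. For Jund they were Pex2 (0.956), Fbxw2 (0.871) and Bcam (0.806), and its own profile rests on 1 low library.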

How the data were processed

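The authors deposited whole-number read counts per transcript and per gene, not normalized (mm10, per the file headers). Extinction (4 libraries) and the earlier states (8 libraries) were tabulated apart. They also deposited FPKM per gene, scaled for length and library size, and transcript lengths in bases, which are the other measure, per the file headers. StringTie is named in the submitters' processing notes. Its version, the aligner and strand use: not given in the sources used here. Among the gene-level columns 1 count column could not be matched to a sample, so gene counts are sums of deposited transcript counts; in the 11 libraries checked, these equalled the deposited gene counts for all 10 members.

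The test on counts was that of edgeR 4.0.16 under R 4.3.3 (quasi-likelihood F test, TMM, filterByExpr, Benjamini-Hochberg over all genes tested, adjusted p threshold 0.05). The region, conditioning and strain effects come from an additive model of the 8 libraries (4 residual degrees of freedom). Each interaction left 3, extinction alone 1, and the 12-library models 6 for the change of the strain gap and 7 for extinction. Each group is 1 library, so p-values measure spread around the model between libraries, not between mice. DESeq2 1.42.0, limma 3.58.1 on log2(FPKM + 1) or log2(FPKM + 0.1), relative log expression scaling, no low-count filter and leaving out each library were alternatives. The code was tested on simulated data.

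Counting intervals of pairs are exact and conditional on the summed count. They cover counting error only. Promoters came from RefSeq (GRCm38.p6) and were matched by symbol for 8 of 10 members; the Fosb intron came from GENCODE. The members and lists were chosen with earlier results of these data known. All members are described; of each list, up to 4 genes past the threshold with the largest differences are named, or the 2 with the smallest p, besides the 3 genes most alike each member (mean CPM of at least 1, predicted genes left out). The rules on groups that do not overlap and on pairs of 1 direction (over 16262 genes), the region contrast after extinction the joint omission of 2 CeA libraries and the levels without conditioned B6 BLA were chosen after seeing the data.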

Additional observations from a re-analysis of the deposited data

How the results depend on the processing

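Every group holds 1 library and all carry the same replicate number. The labels do not say whether a BLA and a CeA library came from the same mice, so no analysis paired by mouse was possible. The pairs above match libraries in all but 1 of strain, region and condition. Of 856 alternative values, 797 kept their direction and their side of the threshold, 33 changed sign, 16 gained and 10 lost a call. DESeq2 called 1 member for conditioning, 2 for extinction against naive and 2 for extinction against conditioned, where edgeR called 0, 0 and 1. Leaving out 1 library gave 0 to 1 members for strain by conditioning, region by conditioning, strain by region, extinction against naive and extinction against conditioned, and 5 to 6 for region. Values near 0 changed sign: Egr1 between regions was 0.019 without naive B6 CeA and conditioned S1 CeA, and the length correction gave −0.048 for Fosl2 and 0.042 for Egr4 between strains.

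Without 1 library, strain values ran from −0.103 to 0.024 for Jun, −0.223 to 0.964 for Jund and −0.096 to 0.043 for Egr4. Conditioning ran from −0.985 to 0.207 for Jund and −0.033 to 0.076 for Egr1, region from −0.076 to 0.020 for Egr1, and strain by conditioning from −0.108 to 3.96 for Jund. Extinction minus naive ran from −0.119 to 0.166 for Fosl2, −0.056 to 0.060 for Egr1 and −0.125 to 0.001 for Egr3. Extinction minus conditioned ran from −0.236 to 0.020 for Fosl2, −0.042 to 0.102 for Jun and −0.077 to 0.030 for Egr1. Of all genes, edgeR called 3712 between strains (2021 higher in S1) and limma on log2(FPKM + 1) called 3403 (1358 higher); between regions these were 7587 (3778 higher in BLA) and 8032 (2805 higher). With 1 library a group, no value separates a condition from its library.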
